A study of Homo sapiens with 6 samples.

Results

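Bidirectional promoters, at which a protein-coding gene on the minus strand and another on the plus strand start close together and are transcribed away from each other, were examined for H3K27 acetylation (H3K27ac) in HSC3 cells, an established line of oral squamous cell carcinoma (OSCC). A pair was taken from the GENCODE annotation of GRCh37 (hg19) where the most 5′ transcription start sites (TSSs) lay at most 1000 bp apart on chromosomes 1 to 22 or X. This gave 883 pairs of 1703 genes, of 20098 protein-coding genes in all, and 62 genes stood in 2 or more pairs. The members were the H3K27ac regions that overlapped the interval between the TSSs or the 500 bp beyond each of them, called the pair window here. They were 1042 of 19705 regions (5.29%) in cells transfected with a control siRNA (siCONT) and 1161 of 17672 (6.57%) in cells transfected with siDLEU1, an siRNA against the lncRNA DLEU1, or 2203 of 37377 together. Cells were collected 72 h after transfection, and the study asked how DLEU1 depletion alters histone marks. ChIP-seq of H3K27ac and H3K4me3 gave 1 library for each siRNA and mark, from 1 cell line and 1 siRNA against DLEU1. No value therefore has a replicate check, no p-value is given, and an effect of the siRNA and a difference between 2 libraries cannot be told apart.

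At a bidirectional promoter the pair of genes shares a short, usually CpG-rich and nucleosome-poor stretch, from which RNA polymerase II sets out in both directions. Such pairs are known for housekeeping functions, among them DNA repair, mitochondrial proteins, ribosomal proteins and the replication-dependent histones. H3K27ac is laid down by the acetyltransferases p300 and CBP on the nucleosomes that flank an active start site, and H3K4me3 is laid down there by SET1 and MLL complexes.

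The sequences between the TSSs of 7 of the named pairs are shown because the regions described below lie over or beside them. They are read from GRCh37 on the plus strand, so that the minus-strand gene starts just left of the first base and the plus-strand gene just right of the last. By the most 5′ annotated ends they belong to neither gene. Capitals mark matches on either strand to a CCAAT box (CCAAT), a GC box (GGGCGG) or an interferon response core (GAAANNGAA), and matches were allowed to overlap.
H2BC4/H2AC6, chr6:26124155-26124372: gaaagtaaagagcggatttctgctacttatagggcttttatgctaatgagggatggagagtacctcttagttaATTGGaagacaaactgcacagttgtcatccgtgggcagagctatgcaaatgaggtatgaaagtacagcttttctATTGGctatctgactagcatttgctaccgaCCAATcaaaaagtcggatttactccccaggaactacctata
SARS2/MRPS12, chr19:39421404-39421583: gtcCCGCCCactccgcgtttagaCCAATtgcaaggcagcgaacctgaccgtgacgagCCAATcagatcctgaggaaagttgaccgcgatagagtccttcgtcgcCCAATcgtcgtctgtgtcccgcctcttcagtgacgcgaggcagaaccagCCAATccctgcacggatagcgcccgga
PMS2/AIMP2, chr7:6048762-6048885: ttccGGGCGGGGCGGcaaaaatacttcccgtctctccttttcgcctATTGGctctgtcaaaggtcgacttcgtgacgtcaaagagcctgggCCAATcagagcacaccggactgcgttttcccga
PATL2/B2M, chr15:45003522-45003555: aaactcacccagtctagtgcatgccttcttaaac
IFIH1/GCA, chr2:163175195-163175349: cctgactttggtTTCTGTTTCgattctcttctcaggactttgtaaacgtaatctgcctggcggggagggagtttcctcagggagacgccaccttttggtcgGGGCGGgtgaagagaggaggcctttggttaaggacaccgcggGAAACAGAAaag
SMG5/TMEM79, chr1:156252617-156252725: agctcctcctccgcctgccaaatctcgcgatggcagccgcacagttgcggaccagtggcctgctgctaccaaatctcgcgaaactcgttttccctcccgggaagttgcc
GLMN/RPAP2, chr1:92764545-92764615: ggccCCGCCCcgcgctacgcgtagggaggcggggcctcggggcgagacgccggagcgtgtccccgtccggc
The 218 bp between the genes of histones H2B and H2A held 3 CCAAT boxes, and the 180 bp between SARS2 and MRPS12, of mitochondrial translation, held 4 and 1 GC box. The interval of the mismatch repair gene PMS2 and AIMP2 held 2 of each, the GC boxes overlapping. Between IFIH1, the cytosolic RNA sensor MDA5, and GCA, 1 interferon response core lay near each end, in opposite orientation, with 1 GC box between them. None of the 3 motifs was found in the 34 bp between PATL2 and B2M or in the interval of SMG5/TMEM79.

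The lists held 19705 and 17672 H3K27ac regions and 58582 and 56943 H3K4me3 regions, in siCONT and siDLEU1 cells in that order. The number of ChIP fragments at the summit of each region was recovered from its fold enrichment and p, and came out whole within 0.01 for 100% of the regions of each list. For H3K27ac its median was 75 in siCONT and 68 in siDLEU1 cells, and for H3K4me3 it was 47 and 41. A summit value is given below as fragments, as coverage (fold over the mean of its library across the genome) or as the percentile of fold enrichment among the regions of its library, where the strongest region stands at 100 and a window without a region is set to 0. H3K27ac lay at the TSS of 9 of 10 squamous epithelial markers in each library, TP63 being the exception, and at 0 of 7 markers of blood, endothelial and fibroblast cells. Of 19278 coding promoter windows, 9372 had an H3K27ac region in both libraries and 9599 an H3K4me3 region in both. The median ratio of summit coverage over these, siDLEU1 over siCONT, was 0.615 for H3K27ac and 1.26 for H3K4me3, and values at pairs stand beside those shifts. In fragments, the medians over marked windows in siCONT and siDLEU1 cells were 104 and 84 for H3K27ac and 95 and 89 for H3K4me3.

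Most bidirectional promoters carried H3K27ac, and they kept it in siDLEU1 cells. A region overlapped the window of 804 of the 883 pairs (91.1%, 95% Wilson interval 89.0 to 92.8) in siCONT cells and of 793 (89.8%, 87.6 to 91.6) in siDLEU1 cells. These intervals cover the counting of pairs only, and they treat the pairs as separate. Pairs can share a region, as 76 siCONT and 87 siDLEU1 regions reached 2 or more pair windows. The mark was present in both libraries at 792 pairs and in neither at 78. The strongest region at a marked pair had a median of 119 fragments, the 79.2 percentile and a width of 1296 bp in siCONT cells, and 94 fragments, the 76.3 percentile and 854 bp in siDLEU1 cells. Regions at pairs were wide for their lists. Their median width was 1039 bp in siCONT cells, where the other regions had 733 bp, and 741 bp in siDLEU1 cells, where the others had 597 bp.

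Beside other coding promoters, pairs were marked about as often as the class most like them and more often than single promoters. A coding gene whose 5′ end overlaps that of an opposite coding gene had H3K27ac in 89.2% (87.1 to 91.0) of 945 windows in siCONT cells. A coding gene with a lncRNA facing away within 1000 bp had it in 79.5% (77.3 to 81.5) of 1401 windows, and a single promoter in 45.6% (44.8 to 46.3) of 16017. In siDLEU1 cells the shares were 85.7% (83.3 to 87.8), 76.8% (74.5 to 78.9) and 41.8% (41.0 to 42.6). The interval of the pairs lay apart from those of the lncRNA and single classes in each library, and overlapped that of the overlapping 5′ ends in each. Among the marked windows alone, the median percentile in siCONT cells was 79.2 at pairs, 77.0 at overlapping 5′ ends, 73.2 beside a lncRNA and 66.8 at single promoters.

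**Figure D1:**
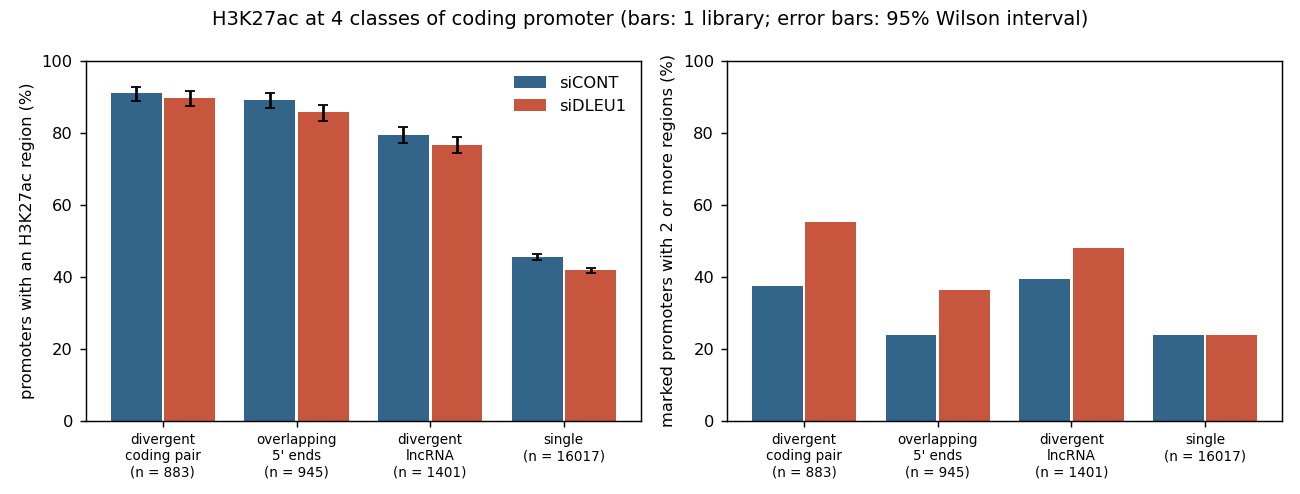
Left, share of coding promoters (%, y axis) with an H3K27ac region in 4 classes (x axis) in the siCONT (blue) and siDLEU1 (red) library, with 95% Wilson intervals as error bars that cover the counting of promoters only. Right, share of the marked promoters (%) with 2 or more regions, which was 37.4% and 55.2% at divergent coding pairs and 23.8% and 23.9% at single promoters. Beside a divergent lncRNA it was 39.3% and 48.1%, and at overlapping 5′ ends 23.7% and 36.4%.

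The highest-ranked pair in siCONT cells was SIRT3/PSMD13 on chromosome 11, with TSSs at 236931 and 236966, which joins a mitochondrial deacetylase and a subunit of the proteasome. Its single region had 222 fragments in siCONT and 182 in siDLEU1 cells, at the 99.91 and 99.97 percentiles, and covered both TSSs in each. PRKDC/MCM4, the DNA-dependent protein kinase and a subunit of the replicative helicase, had 203 and 157 fragments. ALG2/SEC61B, of N-glycan synthesis and the protein translocon, had 226 and 170. ARMH4/ARID4A, whose plus-strand gene encodes an RB-binding chromatin protein, also had 226 in siCONT and then 181, in separate regions on its sides. The fifth was the histone pair H2BC4/H2AC6, with 206 and 144. Each of these 5 pairs kept a summit above the 94 percentile in siDLEU1 cells, while its coverage was 0.543 to 0.636 times that of siCONT cells. The ratio of 0.543, at H2BC4/H2AC6, compares 2 places. The summit there lay at 494 bp from the midpoint in siCONT and at −436 bp in siDLEU1 cells.

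The widest region at any pair in siCONT cells lay over SBF2/ADM, where ADM encodes the secreted peptide adrenomedullin. It spanned 5681 bp, and the strongest region there in siDLEU1 cells spanned 2697 bp on one side of a gap, the widest spanning 2831 bp. KLLN and the unnamed coding gene ENSG00000289051, 26 bp apart, had 4676 bp in siCONT and 1681 bp in siDLEU1 cells. H2BC4/H2AC6 had 4447 bp in siCONT cells, and its siDLEU1 regions included one of 2759 bp, while the strongest spanned 720 bp. At all 3 pairs the siCONT region covered both TSSs and the siDLEU1 list had separate regions on the sides. ELF1/WBP4, with the ETS factor ELF1, went from 3725 to 3221 bp and TAF11/ANKS1A, with a subunit of TFIID, from 3372 to 1567 bp, and each stayed 1 region over both TSSs.

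H3K27ac at pairs flanked the start sites, and its summit was rarely between them. The strongest summit lay between the TSSs at 10 of 804 marked pairs in siCONT and 10 of 793 in siDLEU1 cells. It lay on the side of the minus-strand gene at 403 and 415 pairs and on the side of the plus-strand gene at 391 and 368. Both flanks of 500 bp were reached by a region at 705 of the 804 pairs in siCONT cells (87.7%) and at 623 of the 793 in siDLEU1 cells (78.6%). The median distance of the summit from the midpoint of the TSSs was 358 bp and 367 bp. The stretch between the TSSs was the part that differed most between libraries. Regions covered 57.6% of its bases in siCONT and 31.7% in siDLEU1 cells, while they covered 85.5% and 75.5% of the flanks. At the midpoint itself, 55.8% of the 883 pairs were covered in siCONT and 29.9% in siDLEU1 cells. A lower share was not particular to pairs, as the TSS of single promoters was covered at 21.1% and 10.1%. The highest coverage on the minus side was 80.1% of pairs 250 bp from the midpoint in siCONT cells and 72.0% at 325 bp in siDLEU1 cells. H3K4me3 regions covered the midpoint of 38.4% of pairs in siCONT and 42.0% in siDLEU1 cells.

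**Figure D2:**
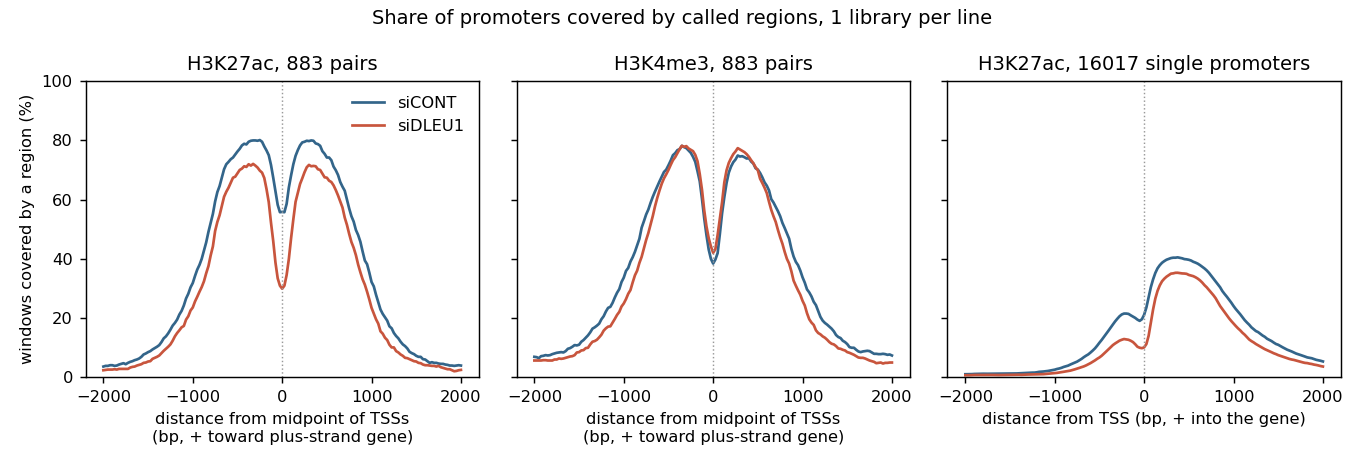
Share of promoters covered by a region (%, y axis) by distance in bp (x axis) from the midpoint of the TSSs of 883 pairs, for H3K27ac (left) and H3K4me3 (middle), and from the TSS of 16017 single promoters for H3K27ac (right), 1 line per library. The dip at the midpoint of the pairs reaches 55.8% and 29.9% for H3K27ac and 38.4% and 42.0% for H3K4me3, in siCONT and siDLEU1 cells, and the single promoters rise mainly on the side of the gene.

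The arrangement of regions around the TSSs differed more between the H3K27ac libraries than their presence did. One region covered both TSSs at 422 of 804 marked pairs in siCONT cells (52.5%) and at 216 of 793 in siDLEU1 cells (27.2%). Separate regions stood on the sides of 283 pairs (35.2%) and then of 407 (51.3%), and regions on 1 side alone at 99 and 169. H3K4me3 went the other way, with 1 region over both TSSs at 264 of 793 pairs in siCONT (33.3%) and 312 of 792 in siDLEU1 cells (39.4%), and separate regions at 403 and 358. Of the 422 pairs with 1 H3K27ac region over both TSSs in siCONT cells, 213 kept such a region, 174 had separate regions and 35 had regions on 1 side in siDLEU1 cells. The reverse, separate regions in siCONT and 1 over both in siDLEU1 cells, was seen at 1 pair. At the 174 divided pairs the gap between the regions was 116 to 816 bp long, with a median of 180 bp, and it held the midpoint of the TSSs at 156. For H3K4me3, 94 of the 174 already had separate regions in siCONT cells and 67 had 1 region over both TSSs. Of these 67, 51 kept it and 16 (23.9%) were divided in siDLEU1 cells, against 10 of the 197 other pairs (5.08%) with 1 such H3K4me3 region. These counts are a description, as both lists of regions come from 1 library each. Pairs with a gene in common can share 1 division, such as FUBP1/DNAJB4 and FUBP1/GIPC2, each counted with a gap of 233 bp. At 23 of the 174, separate H3K4me3 regions in siCONT gave way to 1 over both TSSs in siDLEU1 cells.

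**Figure D3:**
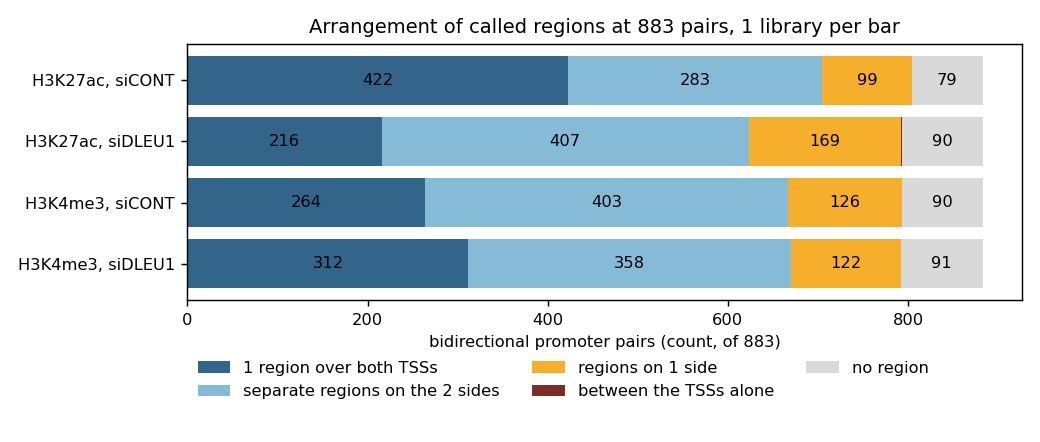
Number of the 883 pairs (x axis) by the arrangement of regions, 1 bar for each library, with 1 region over both TSSs in dark blue, separate regions on the 2 sides in light blue, regions on 1 side in yellow, a region between the TSSs alone in dark red and no region in grey. One region over both TSSs goes from 422 to 216 pairs for H3K27ac and from 264 to 312 for H3K4me3, from siCONT to siDLEU1 cells.

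Division was not particular to pairs of coding genes. The 174 divided pairs are 41.2% of those with 1 siCONT region over both TSSs, and the background over coding and lncRNA partners together was 39.3%. Coding genes with a divergent lncRNA alone gave 178 of 473 (37.6%). The share that kept 1 region was 50.5% at coding pairs, against a background of 46.4% and 42.7% with a lncRNA partner. For H3K4me3, 26 of 264 coding pairs (9.85%) went from 1 region to separate ones, against a background of 9.76% and 9.68% with a lncRNA partner. Values at divided pairs are set beside those at pairs that kept 1 region, and their part in the division was not tested. The divided pairs had a median siCONT coverage of 90.8 and a median coverage ratio of 0.601, and the pairs that kept 1 region had 94.1 and 0.622. The median distance between the TSSs was 116 bp at the divided pairs and 71 bp at those that kept 1 region. With marked pairs split into 4 groups of rising siCONT coverage, 1 region covered both TSSs at 28.9%, 44.2%, 60.9% and 76.4% of marked pairs in siCONT and at 11.3%, 23.1%, 32.7% and 40.7% in siDLEU1 cells. Of those with 1 siCONT region over both TSSs, 25 of 59, 34 of 88, 49 of 123 and 66 of 152 were divided in these groups. The shortest gap between any neighbouring regions was 104 bp in the siCONT and 116 bp in the siDLEU1 H3K27ac list. With regions up to 300 bp apart joined in every list, 1 region covered both TSSs at 71.3% of the 883 pairs in siCONT and 54.0% in siDLEU1 cells, in place of 47.8% and 24.5%.

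The distance between the TSSs went with the arrangement in each library. The median distance was 131 bp, with quartiles of 69 and 247 bp. One H3K27ac region covered both TSSs at 76.2% of the marked pairs 1 to 100 bp apart, 40.5% of those over 100 and up to 300 bp apart and 29.7% of those farther apart in siCONT cells. In siDLEU1 cells the shares were 46.3%, 16.4% and 11.6%, lower in every class of distance. For H3K4me3 they were 51.3%, 20.2% and 25.3% in siCONT and 58.2%, 24.5% and 33.6% in siDLEU1 cells, higher in every class. The share of pairs with any H3K27ac hardly followed distance, at 91.8%, 91.9% and 87.6% in siCONT cells, with overlapping intervals. Just inside the limit of 1000 bp stood PSMB1/TBP at 995 bp, MS4A6A/MS4A4A at 991 bp and APBA3/MRPL54 at 990 bp, and just outside it TXNDC12/BTF3L4 at 1008 bp and ENSG00000268790/TMEM38A at 1024 bp.

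**Figure D4:**
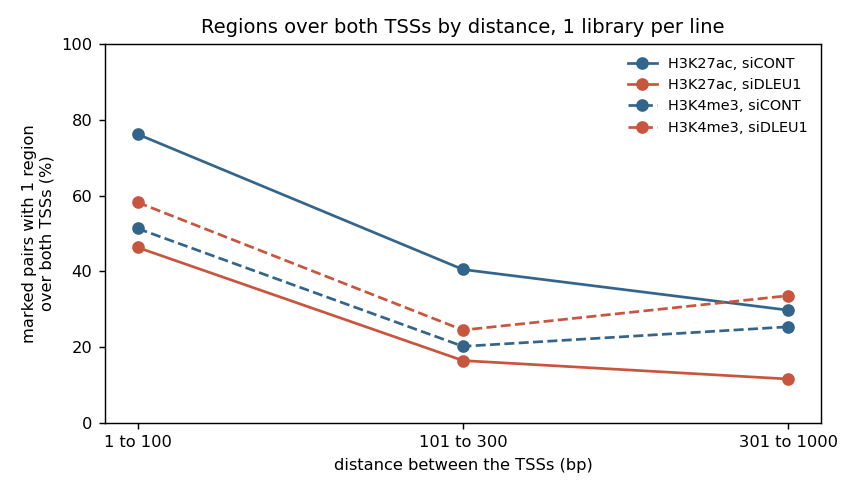
Share of marked pairs (%, y axis) with 1 region over both TSSs by the distance between the TSSs in bp (x axis), for H3K27ac (solid) and H3K4me3 (dashed) in siCONT (blue) and siDLEU1 (red) cells, 1 library per line. The siDLEU1 line lies below the siCONT line for H3K27ac (46.3% against 76.2% at 1 to 100 bp) and above it for H3K4me3 (58.2% against 51.3%).

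The coverage of H3K27ac at the summit, over the mean of its library, was lower in siDLEU1 cells at nearly every pair, by as much as at other promoters. The median coverage at the strongest summit was 80.0 in siCONT and 49.1 in siDLEU1 cells, and the median ratio over 792 pairs was 0.611 (quartiles 0.560 and 0.674). The strongest summits of the 2 libraries lay at most 100 bp apart at 552 of these pairs. The ratio was above 1 at 4 pairs (0.505%), against 1.36% of all windows. The median change of percentile was −2.25 points (quartiles −12.9 and 6.62), with 463 pairs lower and 341 higher, and over all windows it was −5.27. The medians of pairs and of all windows were −7.84 and −11.9 without regions below a −log10 q of 10, −15.0 and −18.6 with no flank, −3.08 and −7.04 with the 50% overlap and −0.328 and −2.15 with equal numbers of regions, so that the pairs had the smaller decrease in each. The percentile was lower by 20 points or more at 126 pairs (15.7%, background 21.6%) and higher by as much at 48 (5.97%, background 7.24%). The strongest region was at most 0.5 times as wide at 181 pairs (22.9%, background 16.8%) and wider at 81 (10.2%, background 9.22%). The narrower share was not particular to pairs, at 23.6% at overlapping 5′ ends, 19.4% beside a lncRNA and 14.8% at single promoters. The median width ratio was 0.797 at pairs and 0.794 over all windows. With the widest region of each window in place of the strongest, 156 pairs (19.7%, background 15.8%) were at most 0.5 times as wide and 62 (7.83%, background 8.31%) wider.

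H3K27ac present in siCONT and absent from siDLEU1 cells was seen at 12 of 804 pairs (1.49%, interval 0.856 to 2.59), against a background of 7.11%. The count depended on the settings, and so did the background. It was 54 of 787 pairs (6.86%, background 17.9%) where regions below a −log10 q of 10 were left out, 26 of 674 (3.86%, background 14.1%) where 50% of a region had to lie inside the window, and 232 of 687 (33.8%, background 37.8%) with no flank beyond the TSSs. It was 10 of 807 (1.24%, background 5.83%) with a flank of 1000 bp and 11 of 801 (1.37%, background 5.32%) with equal numbers of regions. The share at pairs lay below the background in each. With the main settings it was 3.9% at overlapping 5′ ends, 3.41% beside a lncRNA and 8.67% at single promoters. Marked pairs also had the higher median percentile in siCONT cells, 79.2 against 69.7 over all marked windows. The highest-ranked of the 12 pairs was STMN3/RTEL1, of a microtubule regulator and a telomere helicase, with 91 fragments at the 65.4 percentile in siCONT cells. That region of 912 bp reached only 65 bp into the window, its summit lay 1028 bp from the midpoint, and a siDLEU1 region overlapped it outside the window, 30 bp beyond the edge. H3K4me3 likewise touched the edge, with 84 and 82 fragments. At TRMT10A/MTTP, with 54 fragments in siCONT cells, a siDLEU1 region also overlapped the siCONT region, 437 bp outside the window. No siDLEU1 region overlapped the strongest siCONT region of the other 10 pairs. Among these, TP53BP1/MAP1A had 45 fragments in siCONT cells, NRG4/TMEM266 44 and LYSMD2/TMOD2 37. The named pairs include a double-strand break repair factor, a neuregulin, a tRNA methyltransferase and the lipoprotein assembly gene MTTP. The remaining 7 pairs without a siDLEU1 region had 20 to 33 fragments in siCONT cells. At 11 of the 12 pairs the canonical TSSs of the genes lay farther apart than 1000 bp, so that the window held an alternative start of at least 1 gene. GPC2/STAG3, of a glypican and a meiotic cohesin subunit, was the 1 pair with a region in siDLEU1 cells alone, with 42 fragments, of 79 without one in siCONT cells (background 0.316%).

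Among pairs marked in both libraries, the percentile was lower by the most at SMG5/TMEM79, which pairs a factor of nonsense-mediated mRNA decay with a gene of the epidermal barrier. Its TSSs stand at 156252616 and 156252726 on chromosome 1. The strongest H3K27ac summit had 139 fragments in siCONT and 40 in siDLEU1 cells, and the percentile went from 93.0 to 9.06. One region of 1696 bp over both TSSs gave way to separate regions, of which the stronger spanned 492 bp and the wider 1058 bp. H3K4me3 had 195 and 214 fragments and covered both TSSs in each library. The coverage ratio of H3K27ac, 0.223, was the lowest of 792 pairs. The siCONT summit lay at −186 bp from the midpoint, on the SMG5 side, and the siDLEU1 summit at 217 bp, on the TMEM79 side. The ratio thus compares 2 places. The strongest region is that of highest fold enrichment, and the fragments of the wider siDLEU1 region are not given here. At the next pairs in this order the fragments differed less than the percentile. GLMN/RPAP2, with an RNA polymerase II phosphatase, went from the 98.6 to the 37.3 percentile with 165 and 102 fragments, a coverage ratio of 0.480. ECHDC2/SCP2 went from 81.3 to 7.56 with 107 and 81 fragments, a ratio of 0.588, and PCLAF/TRIP4, with a PCNA-associated factor, from 84.1 to 23.4 with 112 and 81. Percentiles rest on the enrichment over the local background, and at ECHDC2/SCP2 and PCLAF/TRIP4 the coverage ratio lay between the quartiles of all pairs.

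The pairs whose percentile was higher by the most had lower coverage in siDLEU1 cells too. HPS5/GTF2H1, with a subunit of TFIIH, went from the 18.1 to the 75.8 percentile with 121 and 113 fragments, a coverage ratio of 0.725. UQCC6/TDG, with thymine DNA glycosylase, went from 26.8 to 82.5 with 125 and 88 fragments and a ratio of 0.547, and its region over both TSSs was divided. RPL18/SPHK2, of a ribosomal protein and sphingosine kinase 2, went from 40.7 to 86.8, the histone pair H2BC13/H2AC13 from 37.3 to 82.2 and WDR87/SIPA1L3 from 31.9 to 75.5. Their coverage ratios were 0.695, 0.8002 and 0.731, above the upper quartile of all pairs. The ratio at H2BC13/H2AC13 compares 2 places, with the summit at −404 bp from the midpoint in siCONT and at 496 bp in siDLEU1 cells.

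Interferon-stimulated genes stood in 7 pairs, of which 6 had H3K27ac in siCONT and 5 in siDLEU1 cells. Their median percentile change was −16.0 points, against −5.27 over all windows, and 3 of 6 were lower by 20 points or more (background 21.6%). PATL2/B2M, with the light chain of MHC class I, had 1 region over both TSSs (45003521 and 45003556 on chromosome 15) in each library. It had 150 fragments over 2436 bp in siCONT cells. In siDLEU1 cells the strongest region had 62 fragments over 463 bp, a coverage ratio of 0.321, and another region there spanned 1431 bp. The siCONT summit lay at 402 bp from the midpoint, on the B2M side, and the siDLEU1 summit at −107 bp, on the PATL2 side. This ratio thus compares 2 places, and the fragments of the 1431 bp region are not given here. The 463 bp region, which covered both TSSs, reached only 31 bp into B2M. IFIH1/GCA had 107 and 45 fragments, a ratio of 0.326, and its region over both TSSs went from 1530 to 1292 bp. These ratios were the fifth and sixth lowest of 792 pairs, behind SMG5/TMEM79, FKBP14/PLEKHA8, RNF166/CTU2 and RBP5/CLSTN3, the last 3 named after their values were seen. LIPA/IFIT5, of lysosomal acid lipase and an RNA-binding antiviral protein, had 149 and 106 fragments, and its ratio of 0.552 was the 173rd lowest. STOML1/PML, with the organiser of nuclear bodies, had 96 and 70 (ratio 0.566), and HES4/ISG15, with the ubiquitin-like modifier ISG15, had 62 and 50 (ratio 0.626), within the quartiles of all pairs. BST2/MVB12A, with the virus-tethering protein BST2, had a weak region of 20 fragments in siCONT cells and none in siDLEU1 cells. TRIM5/OR56A3 had no region of either mark.

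H3K4me3 was also lower in coverage at some of these pairs, where most pairs were higher in coverage. Its fragments went from 177 to 100 at PATL2/B2M, from 149 to 85 at LIPA/IFIT5 and from 94 to 58 at IFIH1/GCA, coverage ratios of 0.774, 0.782 and 0.846. At BST2/MVB12A the H3K4me3 regions, with 65 fragments in siCONT cells, were absent from siDLEU1 cells. The ratio was 1.003 at STOML1/PML and 1.17 at HES4/ISG15. Over 783 pairs with H3K4me3 in both libraries the ratio was above 1 at 692 (88.4%, background 81.1%), with a median of 1.30. In fragments, the median of the strongest H3K4me3 summit at marked pairs was 99 in each library. The coverage ratio also holds the means of the libraries, by which the fragments are divided. At 6 of the 7 interferon pairs the canonical TSSs lay more than 1000 bp apart, PATL2/B2M being the exception, so the H3K27ac of these windows cannot be assigned to both genes. A list of interferon-stimulated genes has been studied in these same libraries, and its direction here is no independent evidence.

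**Figure D5:**
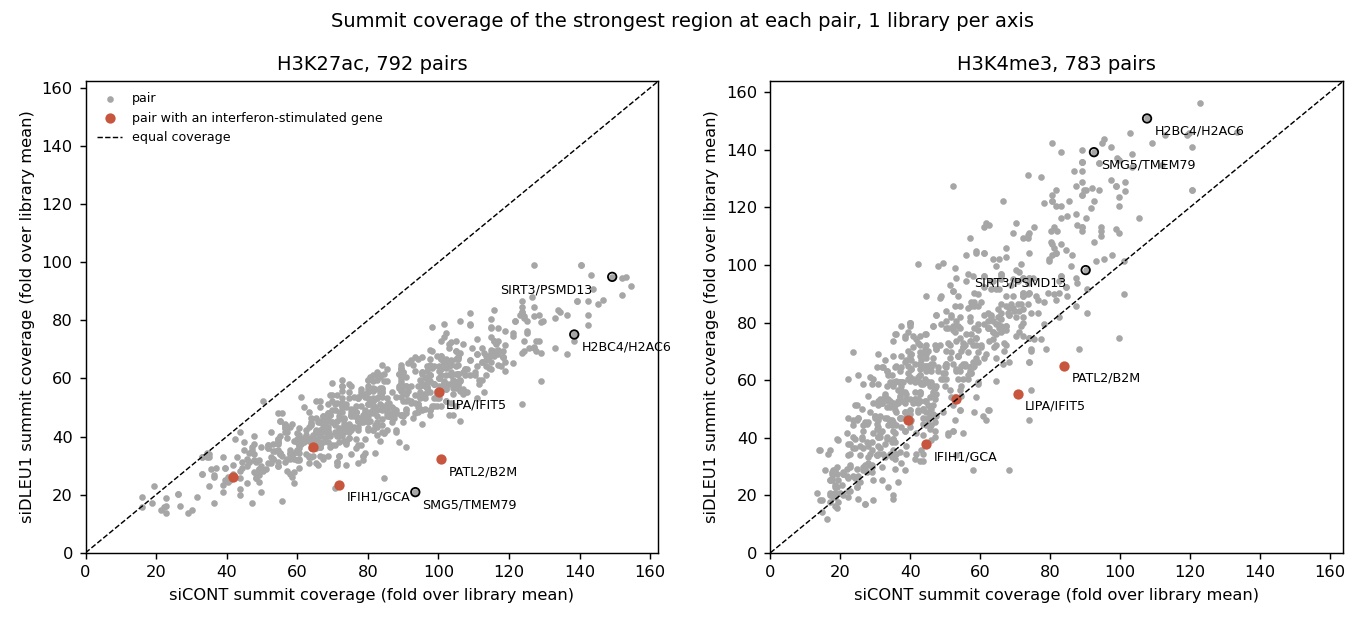
Coverage at the strongest summit of each pair (fold over the library mean) in siCONT (x axis) and siDLEU1 (y axis) cells, for H3K27ac at 792 pairs (left) and H3K4me3 at 783 (right), with 1 library per axis. Pairs with an interferon-stimulated gene are red, open circles mark other named pairs and the dashed line is equal coverage. Nearly all H3K27ac points lie below the line, with SMG5/TMEM79 (0.223), PATL2/B2M (0.321) and IFIH1/GCA (0.326) far below it, and most H3K4me3 points lie above it. At SMG5/TMEM79, PATL2/B2M and H2BC4/H2AC6 the H3K27ac summits of the libraries lay on opposite sides of the midpoint.

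The repair, mitochondrial, ribosomal and histone gene lists, fixed by function, were marked at all but 1 or 2 of their pairs in each library. DNA repair and checkpoint genes stood in 32 pairs, of which 31 had H3K27ac in siCONT and 30 in siDLEU1 cells, with a median percentile change of −7.25 and a median coverage ratio of 0.617. Of the 31, 9 were lower by 20 points or more (29.0%, background 21.6%) and 2 higher by as much (6.45%, background 7.24%). Of 12 repair pairs with 1 siCONT region over both TSSs, 8 had separate regions in siDLEU1 cells (background 39.3%) and 4 kept 1 (background 46.4%), as at PRKDC/MCM4 and TMEM258/FEN1, the flap endonuclease. Mitochondrial genes stood in 46 pairs, 45 of them marked in each library, with a median percentile of 85.1 in siCONT and 86.8 in siDLEU1 cells. The median change per pair was −2.03, with 26 pairs lower and 19 higher. Of 31 with 1 region over both TSSs, 18 kept it (background 46.4%) and 12 (38.7%) were divided, close to the background of 39.3%. Among them KIN/ATP5F1C, with a subunit of ATP synthase, had 1 region of 2102 bp in siCONT cells and separate regions, the stronger of 668 bp and the wider of 956 bp, in siDLEU1 cells. MRPL36/NDUFS6, of a mitochondrial ribosomal protein and a complex I subunit, kept 1 region, of 3074 and 1086 bp.

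Ribosomal protein and translation factor genes stood in 21 pairs, 20 of them marked in each library, with a median percentile change of 2.25. Their median H3K27ac coverage ratio was 0.648, and the ratio was above 1 at 0 of the 20. Their strongest region kept its width, with a median ratio of 0.960 against 0.797 at all pairs, and it was wider in siDLEU1 cells at 8 of 20 (background 9.22%). TRIM66/RPL27A, for example, had 2347 and 2435 bp over both TSSs, and RPS25/TRAPPC4 had 2130 and 2317 bp. Their median H3K4me3 coverage ratio was 1.48. Replication-dependent histone genes stood in 12 pairs, 11 marked in each library, with a median percentile change of 7.90. The median H3K27ac coverage ratio of the histone pairs was 0.619, and it was above 1 at 0 of the 11. At 9 of the 11 there were already 2 or more regions in siCONT cells, and H2BC4/H2AC6 alone had 1 over both TSSs. H2AC1/H2BC1, a testis histone pair, had no region. Histone genes lie close together and are alike in sequence, and H3C12/H2BC17 and H2AC17/H2BC17 share their regions. COL4A6/COL4A5, of basement membrane collagen, had 86 and 68 fragments, and COL4A4/COL4A3 had no region.

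The 7 textbook bidirectional pairs that met the rule were all marked in each library. NPAT/ATM, of the coactivator of histone genes and the DNA damage kinase, had separate regions on its sides with 92 fragments at the strongest summit in siCONT and 76 in siDLEU1 cells, both near the 71.8 percentile. PPAT/PAICS, enzymes of purine synthesis, had 84 and 85 fragments, a coverage ratio of 0.785. These values compare 2 places, as the summit lay at 750 bp from the midpoint in siCONT and at −579 bp in siDLEU1 cells. PMS2/AIMP2, of mismatch repair and the tRNA synthetase complex, had 112 and 91 fragments, with a ratio of 0.631 and separate regions in both libraries. PSMB1/TBP, of a proteasome subunit and the TATA-binding protein, had 133 and 108 fragments. Its summits too lay on opposite sides, at −849 bp in siCONT and 803 bp in siDLEU1 cells. SARS2/MRPS12 had the lowest ratio of the 7, with 116 and 71 fragments and a ratio of 0.475, and its region of 1539 bp over both TSSs gave way to separate ones, the stronger of 713 bp. Its H3K4me3 had 88 and 114 fragments.

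H3K4me3 accompanied H3K27ac at nearly all pairs. Both marks were present at 787 pairs (89.1%, interval 86.9 to 91.0) in siCONT and 784 (88.8%, 86.5 to 90.7) in siDLEU1 cells, H3K27ac alone at 17 and 9, H3K4me3 alone at 6 and 8, and neither at 73 and 82. Of the bases under H3K27ac in the pair windows, 85.4% also lay under H3K4me3 in siCONT and 93.7% in siDLEU1 cells. H3K4me3 was present in siCONT and absent from siDLEU1 cells at 10 of 793 pairs (background 3.79%), and its strongest region had a median width of 983 bp in each library. At single promoters both marks were present at 42.0% and 39.9%. The pairs with H3K4me3 alone in siCONT cells included HES2/ESPN and NFE2/COPZ1, named after their values were seen.

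In the 300 bp centred on each pair, the bases were rich in GC and CpG and in motifs of promoters that lack a TATA box. The median GC content was 64.3% and the median CpG ratio, observed over that from base content, 0.878, against 59.7% and 0.635 at single promoters and 65.3% and 0.835 at those with H3K27ac. The ETS core CCGGAAG, on either strand, was found at 27.4% of pairs, 11.3% of all coding promoter windows of that length and 17.2% of single promoters with H3K27ac. The NRF1 core GCGCATGC was found at 9.17%, 3.58% and 5.23%, and the CCAAT box at 39.98%, 34.8% and 35.3%. The GC box was found at 70.9%, 52.1% and 69.9%, the YY1 core AAGATGGCG at 3.96%, 2.06% and 3.58%, and the TATA box TATAAA at 5.10%, 10.3% and 5.38%. The interferon response core was found at 6.80%, 7.13% and 6.48%. Marked promoters beside a divergent lncRNA had a median GC content of 69.0% and a CpG ratio of 0.906, and marked overlapping 5′ ends 63.0% and 0.794. The GC box stood at 78.9% and 62.3% of these, the ETS core at 22.4% and 18.3% and the TATA box at 3.50% and 4.63%. High GC and CpG were thus not particular to pairs. Lists differed in these motifs. All 12 histone pairs held a CCAAT box and 10 a TATA box, 13 of 46 mitochondrial pairs (28.3%) held an NRF1 core, and 4 of 7 interferon pairs held an interferon response core, as did 8 of the 12 histone pairs. By state, a CCAAT box was found at 43.7% of the 174 divided pairs and 27.2% of the 213 that kept 1 region over both TSSs, and an ETS core at 41.4% and 39.4%. The TSSs of these sets lay a median of 116 and 71 bp apart, and the motif shares were not split by distance. These shares are a description of letters, and a match is not a bound site.

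The annotated start that defines a pair was not always the canonical one. At 551 pairs the canonical TSSs of the genes also lay 1 to 1000 bp apart, facing away, and at 332 they did not. In siCONT cells H3K27ac marked 95.3% (93.2 to 96.8) of the first and 84.0% (79.7 to 87.6) of the second. It was then absent from siDLEU1 cells at 1 of 525 of the first and 11 of 279 of the second. The arrangement differed between libraries in both, with 1 region over both TSSs at 59.2% and 30.9% of the marked pairs of the first and 39.8% and 20.1% of those of the second, in siCONT and siDLEU1 cells. The 79 pairs without H3K27ac in siCONT cells included genes of other tissues, named after their values were seen, such as GABRA4/GABRB1, of neuronal GABA receptor subunits, and MS4A6A/MS4A4A, of myeloid cells. Their median CpG ratio was 0.663, against 0.887 at the marked pairs, and 9 of them (11.4%) held an ETS core, against 29.0%.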

How the data were processed

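ChIP-seq of H3K27ac and H3K4me3 was examined in HSC3 cells 72 h after transfection with control siRNA or siDLEU1, 1 library each. The authors sequenced on an Ion Proton and, per the submitters' processing notes, called peaks with MACS2 on hg19, and its settings are not given in the sources used here. The deposited lists hold 1 peak per line for each library. The fold ratio that the authors deposited compares the summit of a peak with the background around it, as MACS2 computed it. The −log10 p and −log10 q deposited beside it also come from MACS2. The deposited score, a display value, was not used. The 2 input libraries were not analysed here, and read totals are unknown.

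Pairs were found in GENCODE version 44 lifted to GRCh37, and regions on chromosomes 1 to 22 and X were assigned by an overlap of at least 1 bp. Windows of other coding genes ran from 500 bp inside the gene to 500 bp beyond a stretch of 131 bp upstream, the median distance of pairs. Summit fragments were solved from the fold ratio and p, and this and the overlap functions were tested on simulated data. Python 3.11.15, numpy 2.4.6, pandas 2.3.3, scipy 1.17.1 and matplotlib 3.10.9 were used.

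Members, lists and comparisons were chosen with earlier results of these data known. Pairs named were the 5 highest and 5 widest in siCONT cells, the 5 with the largest decrease and the 5 with the largest increase of percentile, the 5 highest without a siDLEU1 region, those with one in siDLEU1 alone, every pair with an interferon-stimulated gene and 7 of 14 textbook pairs, those that met the rule. Some pairs that the rule names are not reported here. Other pairs were named as examples of a list or after their values were seen. No test was made with 1 library per group. The alternatives tried were other flanks, a −log10 q of 10 or more, an overlap of 50%, a distance of 300 bp, equal numbers of regions and other ranks. Canonical TSSs, the widest region, backgrounds under the alternatives, joined regions and all alternatives for regions over both TSSs were added after seeing the data. PECAM1, an endothelial marker, was not used here.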

Additional observations from a re-analysis of the deposited data

How the results depend on the processing

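No paired analysis was possible because each siRNA and mark has 1 library. Alternatives moved levels, but siDLEU1 cells had fewer marked pairs, a lower covered share, a lower median percentile and fewer regions over both TSSs than siCONT cells in every alternative run but one: with at least 50% of a region inside the window, 76.3% of pairs were marked in siCONT and 81.5% in siDLEU1 cells, and both marks were present at 68.7% and 75.8%. By its construction this alternative leaves out wide regions. With regions required to reach the interval between the TSSs, the shares with H3K27ac were 77.8% and 52.0%, the covered shares 51.4% and 28.1%, both marks 56.6% and 47.6%, the percentile change −15.0, the width ratio 0.836 and the pairs marked in siCONT cells alone 232, in place of 12. With a −log10 q of at least 10, H3K27ac marked 83.0% of pairs in siDLEU1 cells and covered 53.7% of the windows, both marks stood at 80.4% and 79.4%, single promoters were marked at 41.7% and 33.1%, the percentile change was −7.84 and 54 pairs were marked in siCONT cells alone, against 26 with the 50% overlap. A flank of 1000 bp gave covered shares of 62.2% and 51.4%. Pairs at most 300 bp apart gave 77.1% and 65.4%, and 1 region over both TSSs at 52.9% and 27.9%. Equal numbers of regions in the H3K27ac lists, 17672 each, brought the percentile change from −2.25 to −0.328. The 974 pairs found from canonical TSSs gave H3K27ac at 95.3% and 94.7%, covered shares of 81.9% and 70.6%, both marks at 94.2% and 94.0%, both flanks at 87.5% and 81.7%, 1 region over both TSSs at 54.0% in siCONT cells and 7 pairs marked in siCONT cells alone. Joining regions at most 150 bp apart gave 1 region over both TSSs at 55.5% and 29.2%, and at most 300 bp apart at 71.3% and 54.0%. The causes were not tested beyond these constructions. Read totals are unknown, but the mean coverage of each library entered every coverage value. For H3K27ac, 1 fragment counted 0.334 in siCONT and 0.229 in siDLEU1 cells, over genome-wide levels of 0.497 and 0.439. For H3K4me3 it counted 0.252 and 0.302, over 0.532 and 0.464. An equal number of fragments therefore gives a lower coverage in siDLEU1 cells for H3K27ac and a higher one for H3K4me3. The regions at the 12 pairs without one in siDLEU1 cells had 20 to 91 fragments in siCONT cells, and without replicates no difference between libraries has an error.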

Other observations

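At 4 pairs the H3K27ac coverage at the strongest summit was higher in siDLEU1 than in siCONT cells, named here after their values were seen. DGKQ/IDUA, of a diacylglycerol kinase and a lysosomal hydrolase, had 24 fragments in siCONT and 37 in siDLEU1 cells, a coverage ratio of 1.20. PCSK4/REEP6 had 29 and 44 (ratio 1.18), FHIP1B/CNGA4 75 and 100 (ratio 1.03) and PCBP4/ABHD14A-ACY1 51 and 66 (ratio 1.004). At DGKQ/IDUA a region on 1 side in siCONT cells became 1 region over both TSSs, of 1040 bp.

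H3K4me3 was absent from siDLEU1 cells at 10 pairs that had it in siCONT cells. H3K27ac stayed at 6 of them. One was TXNDC16/GPR137C, with 67 fragments of H3K4me3 in siCONT cells and 175 and 123 fragments of H3K27ac in the siCONT and siDLEU1 libraries. At CIDEB/LTB4R, which had no H3K27ac in either library, an H3K4me3 region of 132 fragments in siCONT cells had no counterpart in siDLEU1 cells.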
